A study of Solanum lycopersicum with 6 samples.

Results

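The genes described here are the xyloglucan endotransglucosylase/hydrolases (XTHs) of tomato roots, followed through the enzymatic release of protoplasts. Members were chosen by locus identifier: 9 XTH loci were named, and 7 of them were found among the 34688 gene models of the count table. The loci Solyc01g099630 and Solyc01g081060 were not analysed here. The files give no gene names, and the RefSeq gene table at hand does not carry Solyc identifiers, so each gene is called by its locus, whose first digits after Solyc give the chromosome.

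XTHs are secreted enzymes that act on xyloglucan, the main hemicellulose tethering cellulose microfibrils in the primary walls of tomato. They cut a xyloglucan chain and join the new end to another chain (endotransglucosylation), or in some family members to water (hydrolysis), and in growing roots they are known for loosening and rebuilding walls as cells elongate. Tomato carries many XTH genes, some of them in tandem arrays of similar copies, and the 4 loci from Solyc03g093080 to Solyc03g093130 lie close together in the numbering of chromosome 3.

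The libraries came from primary roots of wild-type M82 seedlings 7 days after sowing, cut about 3 cm from the tip, with 50 to 100 roots in each sample. The whole group (3 libraries) is labelled as whole roots, with no digestion or other handling given. The protoplasted group (3 libraries) was digested for 2 h at 25 °C with cellulases, Macerozyme and pectolyase in mannitol buffer. The labels name no mock incubation for whole roots, so enzymes and incubation cannot be told apart. The study states in general that experiments were repeated independently, but the labels do not say whether these replicates came from separate plantings, so p-values measure the spread between these samples, which may be partly technical. The libraries read each transcript near its 3′ end, so a count stands for a transcript roughly independent of its length. Levels are given as CPM, the count scaled to a common library size, after TMM normalization. TMM scales each library by a single factor and assumes that most genes do not change between libraries.

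Library totals ran from 5198510 to 5790080 estimated counts, and 3 counts, the limit that a count of 0 allows, equalled 0.518 to 0.577 CPM of the library total. Intervals and limits of this kind cover counting error only. Of the 11 exodermal markers fixed from the study, 10 were in the table. They include suberin genes such as SlASFT, which makes the feruloyl esters of suberin. The edgeR rule used for the XTHs below (adjusted p threshold 0.05) called 18.7% of all tested genes lower after protoplasting. It called all 10 markers lower, and their median log2 fold change of protoplasted over whole roots was -6.13. Most of these markers had enough counts for the test only through whole roots. With at least 10 counts required in every library, 1 marker was called lower. The summed level of the 10 markers was 1422 to 2812 CPM in whole roots and 12.1 to 50.0 CPM in protoplasts, and SlGPAT5 was at 0 counts in 2 protoplasted libraries. No identifiers of markers for other root cell types were at hand. In such bulk samples, fewer cells of a type and less RNA per cell cannot be told apart, and the part of the changed cell content in the XTH values below was not tested.

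Solyc03g093110 and Solyc03g093130, both of the chromosome 3 array, rose in protoplasts. Of the 5 members with enough counts to be tested, these 2 were higher and 3 did not pass, at a threshold of 0.05 on the p of the quasi-likelihood test in edgeR, Benjamini-Hochberg adjusted over 15966 genes. Of all genes tested, 17.0% were higher and 18.7% were lower by the same rule. With library size as the only scaling, 1887 genes were higher and 3447 lower in place of 2711 and 2981. No member was lower, with 0 at an unadjusted p under 0.05 in edgeR and 0 called by DESeq2 or limma-voom. The median log2 fold change was 1.12 over the 5 members and 0.02 over all genes tested. The member median is the value of Solyc03g093080, which did not pass. Most of the 5 are chromosome 3 loci whose reads were divided among each other, so this median does not stand for the whole family.

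Solyc03g093130 was the member that moved most among those tested. It had 5.57, 8.91 and 14.8 CPM in whole replicates 1, 2 and 3 and 30.2, 68.6 and 91.9 CPM in protoplasted replicates 1, 2 and 3. Every protoplasted library was thus above every whole library, as held for 25.1% of all genes tested in this direction. The mean went from 9.76 ± 4.67 CPM (SD, n = 3) to 63.5 ± 31.2 CPM (SD, n = 3), a 6.48-fold rise. On the log2 scale the change was 2.70 (standard error 0.48, 95% interval 1.61 to 3.78, adjusted p = 0.00352 in edgeR), and 8.47% of genes tested had a larger change in either direction. It was the only one of the 5 past both an adjusted p of 0.05 and a log2 fold change of 2, where 4.15% of all genes tested were higher.

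Solyc03g093110 followed with a smaller rise. Its levels were 5.30, 7.35 and 7.51 CPM in whole replicates 1, 2 and 3, and 11.6, 29.2 and 35.5 CPM in the protoplasted replicates in the same order. The groups did not overlap, although the lowest protoplasted library lay close to the whole roots. The log2 fold change was 1.93 (standard error 0.42, adjusted p = 0.00837 in edgeR), or 3.81-fold.

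Solyc03g093080 showed a smaller difference that did not pass the test. Whole replicates 1, 2 and 3 had 2.88, 7.22 and 8.64 CPM, and the protoplasted replicates had 5.92, 11.1 and 23.6 CPM. The groups overlapped, because protoplasted replicate 1 lay below whole replicates 2 and 3. The log2 fold change was 1.12 with a 95% interval from -0.16 to 2.40 (adjusted p = 0.152 in edgeR), and without protoplasted replicate 3 it was 0.41 (adjusted p = 0.579). For this gene, replicates 1, 2 and 3 rose in the same order in both groups. Over all genes tested, deviations from the group means of same-numbered libraries correlated at 0.438, 0.116 and 0.547, so replicate 2 paired weakly. With the replicate number as a block the log2 fold change of Solyc03g093080 was 1.05 (standard error 0.29) and its adjusted p in edgeR was 0.0162, so this call rests on whether the block is used. Within replicates 1, 2 and 3 the log2 ratio of protoplasted over whole was 1.04, 0.62 and 1.45, positive in each.

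Solyc03g093120 was seen in protoplasts alone, at a low level. It had 0 counts in all 3 whole libraries and 20.1, 5.98 and 13.2 estimated counts in protoplasted replicates 1, 2 and 3, or 4.20, 1.23 and 2.40 CPM. Set against a floor of 3 counts in each whole library, its mean was 5.23-fold higher in protoplasts. That floor covers counting error only. The value is no lower bound, because an estimate of 0 can also arise when shared reads are assigned to the similar loci. Solyc03g093120 had too few counts for the filter. In the fit of every gene with any count its adjusted p was 0.00233 in edgeR. It entered that fit through its protoplasted counts alone, as rounded estimates, so this p adds no support. Its count was not a whole number in any protoplasted library, so its level depends on how reads were divided among similar transcripts.

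**Figure D1:**
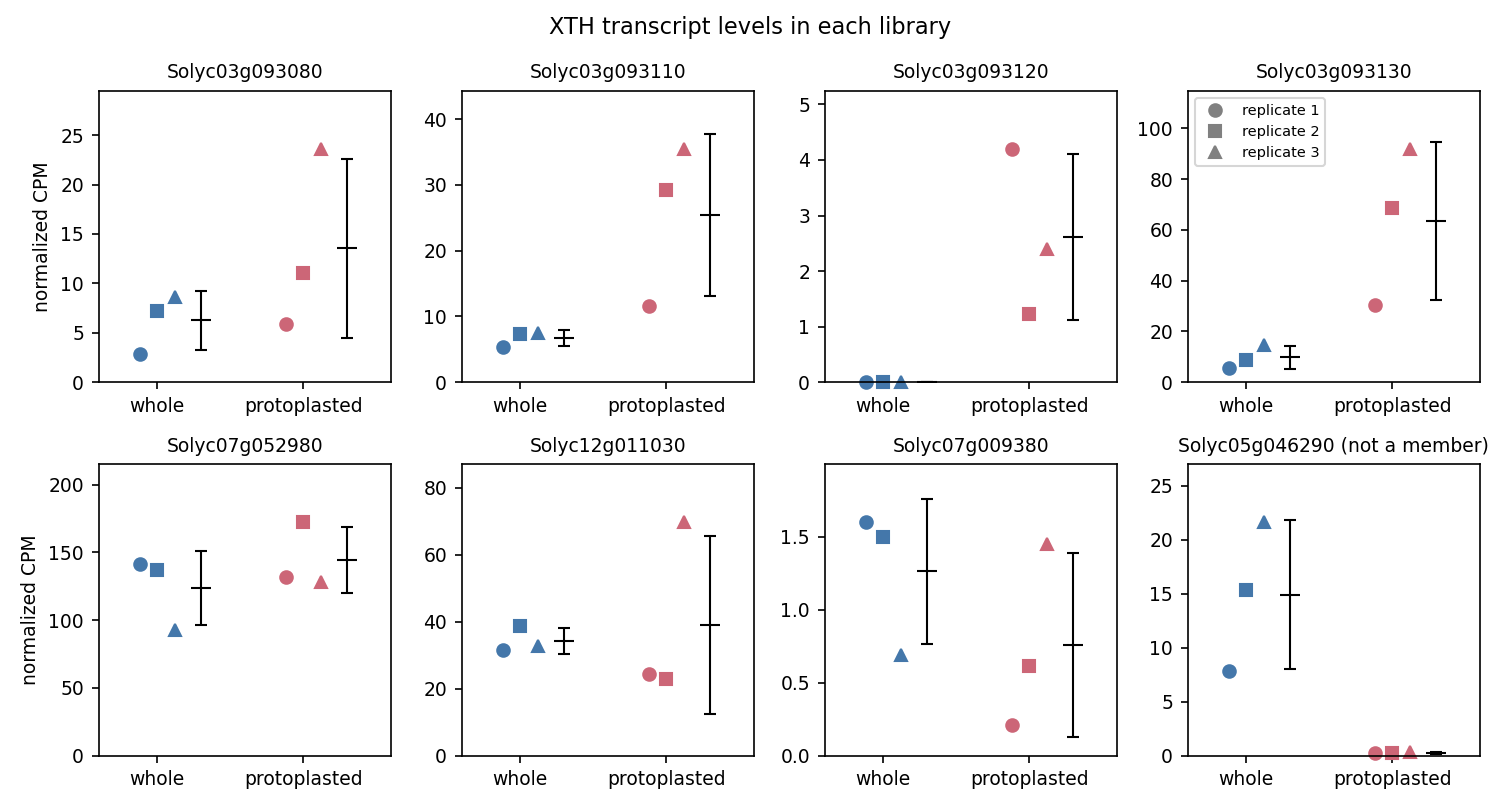
Normalized CPM (vertical axes, linear from 0, scaled per gene) of the 7 XTH members and of Solyc05g046290 in whole (blue) and protoplasted (red) libraries; marker shapes give replicates 1 to 3, and black dashes with bars give the mean and SD of each group. Protoplasted libraries of Solyc03g093130 sit between 30.2 and 91.9 CPM, above the whole libraries at 5.57 to 14.8, while the groups of Solyc07g052980 and Solyc12g011030 overlap.

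Kallisto assigns a read that matches several transcripts in parts, which leaves fractional counts as a trace of shared reads. Among the members, 25 of 42 values (59.5%) were not whole numbers, at a tolerance of 0.001, against 6.33% of the values of all genes with any count. At least 1 fractional count was found in 5 of the 7 members, namely the chromosome 3 loci and Solyc12g011030, against 10.8% of all genes with any count. The counts of Solyc07g052980 and Solyc07g009380 were whole in all 6 libraries.

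The fractions of the chromosome 3 members closed among themselves. In whole replicate 1, Solyc03g093110 ended in 0.1725 and Solyc03g093130 in 0.8275, while Solyc03g093080 and Solyc03g093120 were whole. In protoplasted replicate 1 the fractional parts were 0.3753, 0.8192, 0.1297 and 0.676 for Solyc03g093080, Solyc03g093110, Solyc03g093120 and Solyc03g093130. The sum of the 4 loci was a whole number within 0.005 in 6 of 6 libraries, whereas no set of 3 of them gave whole sums in more than 3 libraries and no pair in more than 2. The row next to the array in the numbering, Solyc03g093070, was examined after its values were seen. It had fractional counts in 5 libraries, but with it added the sum was whole in 1 library only. Solyc03g093070 also rose, from 0 to 4.43 CPM in whole roots to 16.5 to 39.4 CPM in protoplasts. Its log2 fold change of 3.20 was larger than that of any member tested, and it had enough counts for the test only through protoplasts. On the other side of the array, Solyc03g093140 was lower in protoplasts (log2 fold change -1.14). The rise was thus not particular to the 4 loci. Between the members, Solyc03g093090 had 0 counts in every library.

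Solyc12g011030 had a single partner. Over the 34687 other rows, only Solyc12g011023 completed its counts to a whole number in all 6 libraries, for example 117.165 with 502.835 in protoplasted replicate 1 and 232.129 with 290.871 in whole replicate 2. The files give Solyc12g011023 no description, and it is not among the named XTH loci. Complementary fractions show how the deposited estimates add up and do not show how many reads were ambiguous.

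**Figure D2:**
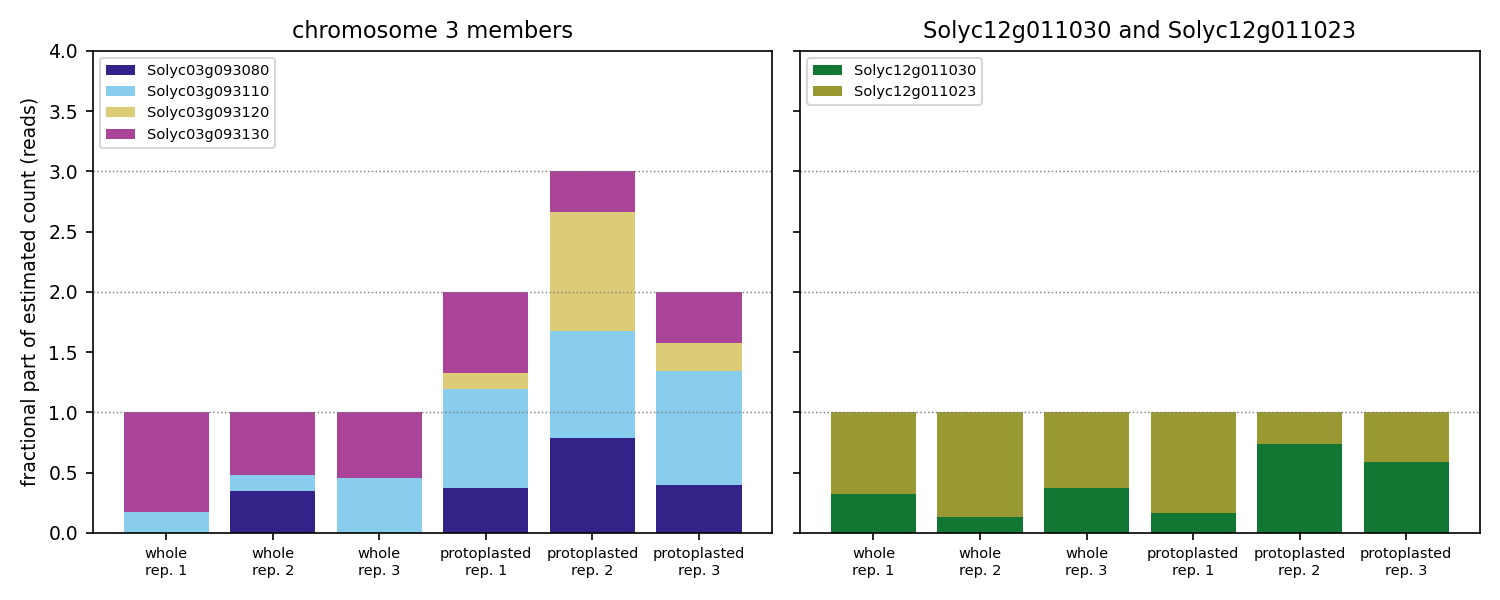
Stacked bars give the fractional part of the estimated count (reads, vertical axis) for the 4 chromosome 3 members (left) and for Solyc12g011030 with Solyc12g011023 (right) in each library; dotted lines mark whole numbers. Every stack ends on a dotted line, so that the sums were whole in 6 of 6 libraries for both sets.

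Summing the chromosome 3 members removes the dependence on that division. The 4 loci together had 86, 141 and 179 counts in whole replicates 1, 2 and 3 and 249, 535 and 847 counts in protoplasted replicates 1, 2 and 3. In normalized units these were 13.7, 23.5 and 30.9 CPM against 52.0, 110 and 153 CPM, with no overlap between the groups. With the sum entered as 1 gene and the whole table refitted, the log2 fold change was 2.21 (standard error 0.43, 95% interval 1.22 to 3.20, adjusted p = 0.00553 in edgeR), a 4.63-fold rise.

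The spread between libraries of the same group was wide, and it ran in parallel in both groups. Whole replicate 3 held the most chromosome 3 counts of the whole roots and protoplasted replicate 3 the most of the protoplasts, and replicate 1 held the fewest in each group. Within replicates 1, 2 and 3 the log2 ratio of the sum was 1.92, 2.23 and 2.31. The ratio was therefore less variable than the levels, and with the replicate block the standard error of the log2 fold change was 0.17 in place of 0.43. Leaving out each library in turn gave log2 fold changes from 1.80 (without protoplasted replicate 3) to 2.52 (without protoplasted replicate 1), all past the threshold in edgeR.

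**Figure D3:**
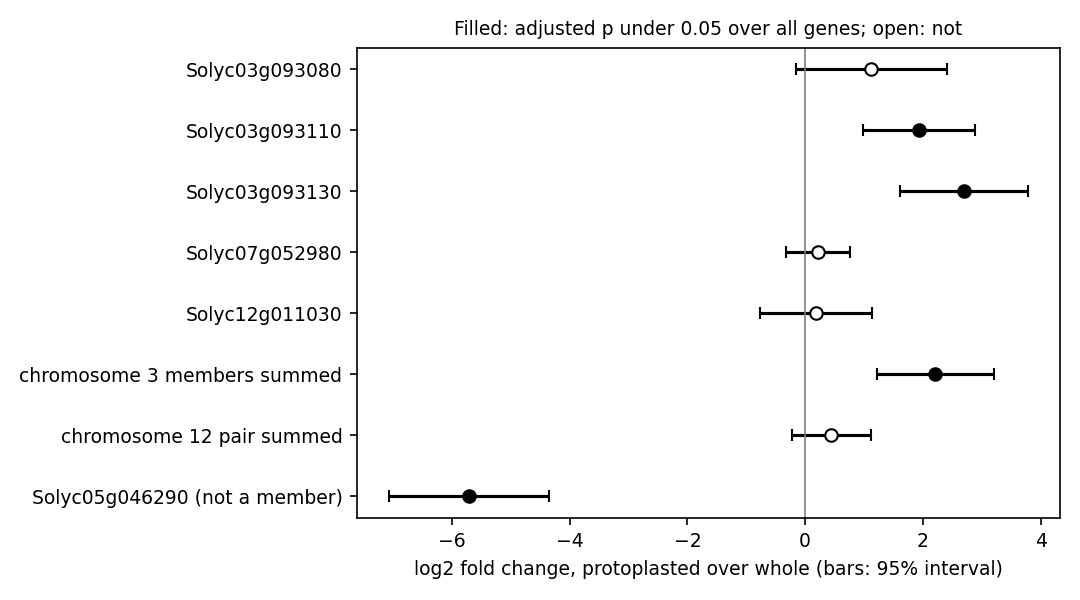
Log2 fold change of protoplasted over whole roots (horizontal axis) with its 95% interval from edgeR, for the 5 members tested, the 2 summed features and Solyc05g046290; filled points had an adjusted p under 0.05 over all genes. The sum of the chromosome 3 members lies at 2.21 and that of the chromosome 12 pair at 0.44, while Solyc05g046290 lies at -5.71.

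The estimated division of the counts among the chromosome 3 loci also differed between the groups in these libraries. Solyc03g093130 took 42.1% ± 5.10 of the counts of the 4 loci in whole roots against 60.1% ± 2.11 in protoplasts (SD, n = 3), with ranges of 38.0 to 47.8% and 58.1 to 62.3%. The share of Solyc03g093080 was smaller in protoplasts, going from 26.5% ± 5.05 to 12.3% ± 2.78 (SD, n = 3), also without overlap. Shares of a fixed total move against each other, so these shifts are not separate results. The level of Solyc03g093080 itself did not fall (log2 fold change 1.12). For the shares of Solyc03g093130 and Solyc03g093080 the exact two-sided permutation test gave p = 0.1, the smallest that 3 libraries against 3 allow. With Benjamini-Hochberg adjustment over the 11 shares and sums tested in this way, the exact p of 0.1 became 0.183, 0.2 became 0.275, 0.3 became 0.367, 0.5 became 0.55 and 0.8 stayed 0.8. The share of Solyc03g093110 overlapped between the groups, at 24.3 to 38.6% in whole roots and 22.4 to 26.5% in protoplasts (exact permutation p = 0.2).

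**Figure D4:**
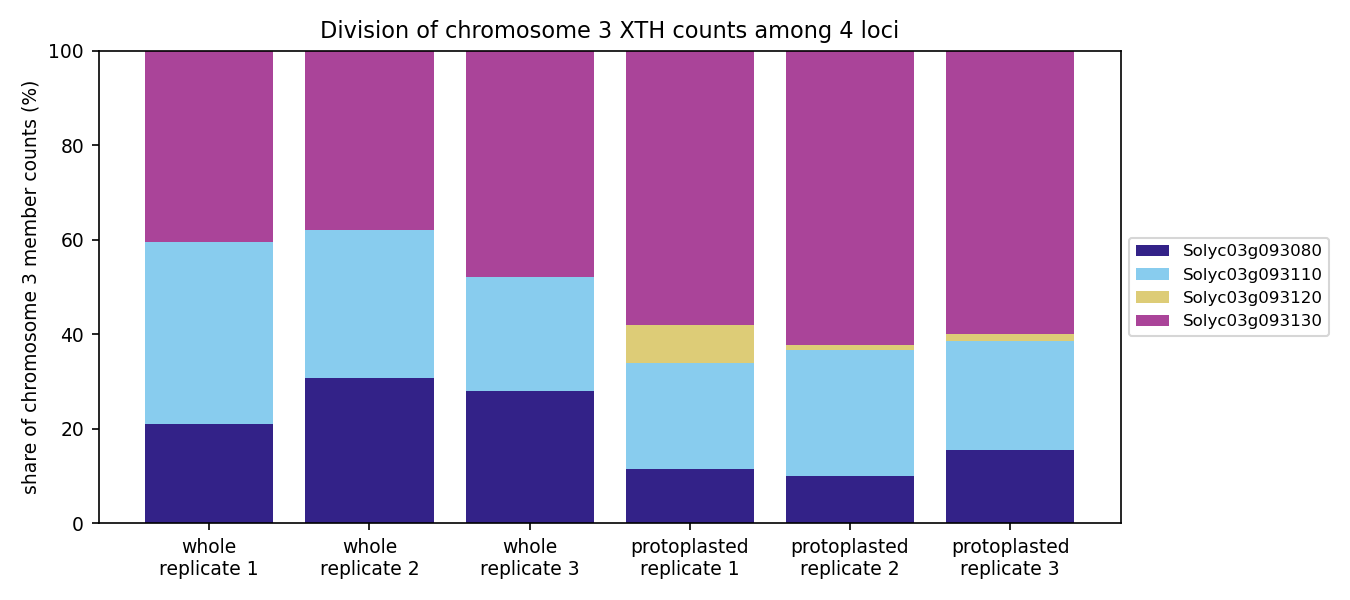
Stacked bars give the share (%) of the chromosome 3 XTH counts that each of the 4 loci took in each library, from 0 to 100%. The part of Solyc03g093130 is 38.0 to 47.8% in the whole libraries and 58.1 to 62.3% in the protoplasted ones, and Solyc03g093120 appears in the protoplasted libraries only.

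Solyc07g052980 was the most abundant member in both groups and did not pass the test. It had 142, 137 and 92.5 CPM in whole replicates 1, 2 and 3 and 132, 172 and 128 CPM in protoplasted replicates 1, 2 and 3. These ranges overlapped, and whole replicate 3 was the lowest of the 6 libraries. The log2 fold change was 0.22 with a 95% interval from -0.33 to 0.76 (adjusted p = 0.507 in edgeR), an interval that ended below the lower end of that of Solyc03g093130 at 1.61. All its counts were whole numbers.

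By Pearson correlation of log2 CPM over the 6 libraries, the genes most like Solyc07g052980 among 15965 others were Solyc07g008320 (r = 0.994) and Solyc03g058300 (r = 0.992). Solyc07g008320 ran from 180 to 261 CPM. Solyc03g058300 was scarce, at 0.17 to 6.65 CPM. The files describe neither, and picking the highest of 15965 values favours a high r.

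Solyc12g011030 had similar means in both groups, with a wider spread in protoplasts. Whole replicates 1, 2 and 3 were close together at 31.5, 38.7 and 32.7 CPM, and the protoplasted replicates had 24.5, 22.8 and 69.6 CPM. Protoplasted replicates 1 and 2 lay below every whole library and protoplasted replicate 3 above them. The log2 fold change of 0.19 (95% interval -0.76 to 1.14, adjusted p = 0.754 in edgeR) thus rested on protoplasted replicate 3, and without it the value was -0.58 (adjusted p = 0.116 in edgeR).

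Summed with Solyc12g011023, the pair had 110, 87.1 and 83.1 CPM in whole roots and 129, 79.6 and 173 CPM in protoplasts. The groups overlapped and the log2 fold change was 0.44 (95% interval -0.22 to 1.11, adjusted p = 0.270 in edgeR), or 0.11 without protoplasted replicate 3. Solyc12g011030 took 28.6 to 44.4% of the pair's counts in whole roots and 18.9 to 40.3% in protoplasts (exact permutation p = 0.5).

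Solyc07g009380 was scarce and too low to be tested. It had 10, 9 and 4 counts in whole replicates 1, 2 and 3 and 1, 3 and 8 counts in protoplasted replicates 1, 2 and 3. The groups overlapped, and in the fit of every gene with any count its adjusted p was 0.557 in edgeR, so that no difference was detectable at this depth.

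The order of levels differed between the groups in the place of the chromosome 3 genes. In whole roots, Solyc07g052980 (124 ± 27.2 CPM, SD, n = 3) was followed by Solyc12g011030 (34.3 ± 3.82) and then by Solyc03g093130, Solyc03g093110 and Solyc03g093080, which overlapped their neighbours in that order, with Solyc07g009380 at 1.26 and Solyc03g093120 at 0. In protoplasts, Solyc07g052980 (144 ± 24.4 CPM, SD, n = 3) was followed by Solyc03g093130, Solyc12g011030 (39.0 ± 26.6), Solyc03g093110 and Solyc03g093080, each overlapping the next. Only Solyc07g052980 stood apart from all other members in both groups.

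The chromosome 3 loci made up a larger part of the XTH counts in each protoplasted library than in any whole library. They gave 7.29% (exact Clopper-Pearson 95% interval 5.88 to 8.93), 11.7% (9.93 to 13.6) and 19.7% (17.2 to 22.5) of all XTH counts in whole replicates 1, 2 and 3. In protoplasted replicates 1, 2 and 3 their part was 24.9% (22.2 to 27.7), 36.0% (33.6 to 38.5) and 43.5% (41.3 to 45.7). The groups did not overlap, with means of 12.9% ± 6.31 and 34.8% ± 9.37 (SD, n = 3, exact permutation p = 0.1, the smallest possible), and this share does not depend on how libraries are scaled. It does depend on how reads were divided between Solyc12g011030, which is part of the total, and Solyc12g011023.

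The total of the family was less clear. All members together had 188, 201 and 157 CPM in whole roots and 209, 306 and 353 CPM in protoplasts after TMM scaling, without overlap (exact permutation p = 0.1). As a share of the unscaled library totals, they took 0.0192% ± 0.00279 and 0.0273% ± 0.00770 (SD, n = 3), and here the groups overlapped (exact permutation p = 0.3). Without the chromosome 3 loci the shares were 0.0168% ± 0.00350 and 0.0173% ± 0.00266 (SD, n = 3, exact permutation p = 0.8).

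A further XTH changed in the opposite direction. Solyc05g046290 is described as a xyloglucan endotransglucosylase/hydrolase in the study's tables of a suberin co-expression module and of the exodermal trajectory, and it is not among the named members. It had 49, 92 and 125 counts in whole replicates 1, 2 and 3 and 1, 1 and 2 counts in protoplasted replicates 1, 2 and 3. The groups were far apart, and the log2 fold change was -5.71 (standard error 0.60, adjusted p = 5.2e-04 in edgeR), a fitted value that depends on the very low protoplasted counts. Solyc05g046290 had enough counts for the test only through whole roots, so this p adds no support. With protoplasts set to 3 counts in each library, whole roots were 25.1-fold higher. It fell together with the exodermal markers given above, and the part of the exodermis in its change was not tested.

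Other cell wall genes from the same tables fell as well. Apart from Solyc05g046290 the list holds 9 genes, all in the table, of which 6 were tested. All 6 were lower (median log2 fold change -5.64), against 18.7% of all genes tested, with 0 higher also at an unadjusted p in edgeR. Of these 6, all but Solyc12g014420 had enough counts for the test only through whole roots, so their calls and p-values add no support. The members were taken from exodermal and suberin tables, so they do not stand for wall genes at large. Solyc12g019230, a pectin lyase-like gene, went from 192, 484 and 489 counts in whole replicates 1, 2 and 3 to 0, 0 and 1 in the protoplasts (adjusted p = 2.6e-04 in edgeR). Solyc04g080530, a pectinesterase, the class that removes methyl groups from pectin, had 43, 122 and 194 counts in whole roots and 1, 2 and 5 in protoplasts (adjusted p = 0.00143 in edgeR). The smallest fall was that of Solyc12g014420, a glucan endo-1,3-beta-glucosidase, from 58.5, 44.8 and 77.1 CPM to 16.5, 14.4 and 21.9 CPM (log2 fold change -1.77, adjusted p = 0.00217 in edgeR). The summed level of the 9 genes was 236 to 542 CPM in whole roots and 18.1 to 31.2 CPM in protoplasts, whereas that of the XTH members was 157 to 201 and 209 to 353 CPM. The largest part of the whole-root sum came from Solyc11g012705, of the Pollen Ole e 1 allergen and extensin family (112, 197 and 312 CPM). Most of the protoplasted sum came from Solyc12g014420, so the sums reflect few genes of the list.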

How the data were processed

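Bulk QuantSeq 3′ mRNA libraries of whole and protoplasted roots (3 each) were compared; groups and columns were assigned from the labels, and 0 columns were left over. The authors trimmed reads with Trim Galore 0.6.6, ran kallisto 0.46.2 on read 1 against the ITAG4.1 transcripts, and deposited estimated counts per gene model. No strand option or molecular identifiers are named. Estimated counts were rounded, filtered with filterByExpr (minimum count 10, minimum total 15), scaled by TMM and tested with edgeR 4.0.16 (quasi-likelihood, no block) in R 4.3.3. Standard errors were taken from the F statistic. DESeq2 1.42.0, limma-voom (limma 3.58.1), other scalings and filters, a replicate block and each library left out were tried. Summing Solyc12g011030 with its partner, limma-voom with a block and the family share with that partner were added after seeing the data.

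The members, lists and naming rule (all members, the other XTH of the study's tables and the closest patterns) were chosen with earlier results of these data known. Same-numbered libraries had correlations of deviations from the group means of 0.438, 0.116 and 0.547, so the numbers were taken to pair libraries, although no source names a shared batch. Replicates of a group were not duplicates of each other (lowest chi-square of their counts per degree of freedom 13.2). On simulated counts for 15966 genes, edgeR recovered 94.5% of 200 changed genes at 5.03% false calls, limma-voom 92.5% at 3.65% and DESeq2 92% at 16.7%. All changed genes were given the same size of change, up or down, larger than that of any member tested. Far fewer genes were changed there than were called in these data. These rates therefore do not give the power or the false calls for the XTH genes. Authors' fold changes and p-values in the paper's tables were not used.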

Additional observations from a re-analysis of the deposited data

How the results depend on the processing

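The sum of the chromosome 3 members stayed higher in protoplasts and past the threshold in all 15 alternatives (log2 fold change 1.80 to 2.52, adjusted p 6.2e-06 to 0.0286), as did Solyc03g093110 (1.58 to 2.26, adjusted p 2.6e-04 to 0.0432) and Solyc03g093130 (2.30 to 3.12, adjusted p 6.8e-07 to 0.0211). For both genes the smallest p came from DESeq2. It made more false calls than edgeR on the simulated counts, whose setting differs from these data. With library size as the only scaling, the log2 fold change of the median gene went from 0.02 to -0.14 and that of the chromosome 3 sum from 2.21 to 2.08. Solyc05g046290 stayed lower in the 14 alternatives that kept it. Solyc03g093080 (0.41 to 1.47 with a library left out) passed with the replicate block in edgeR (1.05) and in limma-voom (1.09), and over its alternatives the adjusted p ran from 0.00922 to 0.579; the block changed no other call of a member. Solyc12g011030 ran from -0.58 (reversed, without protoplasted replicate 3) to 0.44 with a library left out. The cause was not tested.

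Members called higher numbered 1 with a log2 fold change beyond 2 or with the chromosome 3 members summed, 3 with the replicate block, and 2 to 3 with a library left out, where Solyc03g093120 can enter. Over all genes, 4182 were higher in limma-voom with the replicate block, 3985 with the block in edgeR, and 1522 to 2747 with a library left out (1522 without protoplasted replicate 2, 1726 without whole replicate 2). Requiring 10 counts in every library, which removes genes that fell, left 1 lower gene of the wall list (10 genes with Solyc05g046290) and 1 lower exodermal marker. The difference in the family's share ran from 0.00462 to 0.0122 percentage points with a library left out. Genes under about 10 counts per library, such as Solyc07g009380, are limited by depth.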
